A study of Drosophila melanogaster with 6 samples.

Results

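The vacuolar-type proton ATPase (V-ATPase) of Drosophila melanogaster embryos was described here through its subunit genes, on arrays of embryos whose mothers carried 6 or 2 copies of bicoid (bcd). Members were all probe sets with a single gene symbol starting with Vha in the array annotation, without regard to their signals. The rule found 32 probe sets of 31 genes among 18769 probe sets that are not controls. Each is a measure of RNA, and neither protein nor pump activity was measured.

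The 6xbcd embryos came from TT16 males crossed to bcd+t8 females, and the 2xbcd embryos, the control, from TT16 males crossed to TT16 females. Mothers of the groups thus differed in stock as well as in bcd copies, and the embryos' own genotype differed too. Each group had 3 arrays, each with RNA of over 100 dechorionated embryos collected for 90 min and then kept for 8 h at 25 degrees, when they were at stages 12 to 13. The bcd signal, which checks the labels, averaged 1736 ± 523 (SD, n = 3) for 6xbcd against 569 ± 281 (SD, n = 3) for 2xbcd, a log2 change of 1.66 (limma adjusted p = 0.0189, and 0.118 without the replicate pairing).

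V-ATPases are rotary pumps that use ATP to move protons into lysosomes, endosomes, secretory vesicles and synaptic vesicles, or out across the apical membrane of epithelia such as the insect Malpighian tubule. The cytosolic V1 sector (subunits A to H) splits ATP and turns a central shaft, and the membrane V0 sector (a, c, c'', d and e) holds a ring that carries protons past subunit a. The fly genome has several gene copies for many subunits, and in the adult a number of these copies are used mainly in the testis. No subunit sequence is shown here, since the files hold signals and gene names only.

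The first principal component of the tested probe sets, called the main axis below, took up 53.5% of the variance between arrays and did not separate the groups. On it 2xbcd replicates 3 and 2 lay at 39.4 and 19.1, 6xbcd replicate 2 at 6.87, and 6xbcd replicate 1, 6xbcd replicate 3 and 2xbcd replicate 1 between -22.3 and -21.4. The trimmed mean of the deposited signals was 500 on every array. Over all tested probe sets the median deviation of an array from the 6-array mean lay between -0.0024 and 0.018 on the log2 scale.

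A single gene of most subunits was detected, together with several copies of subunits a, D and e. Of the 32 probe sets, 21 (20 genes) had a present call on all 6 arrays and were tested, against 54.0% of all probe sets that had the 3 present calls needed. The other 11 probe sets, of 11 genes, had 1 present call among 66. At least 1 gene was tested for 12 of the 13 lettered subunits and for both accessory proteins. The exception was subunit A, the catalytic ATPase, for which only Vha68-3 fell under the rule, and Vha68-1 and Vha68-2 are not analysed here.

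The undetected genes were all additional copies of subunits. They were Vha68-3 (A), Vha36-2 (D), Vha14-2 (F), Vha100-3 (a), Vha16-2, Vha16-3, Vha16-4 and Vha16-5 (c), VhaPPA1-2 (c''), VhaAC39-2 (d) and VhaM9.7-d (e). Their signals lay between 1.10 and 37.5 on all arrays, while no tested member read below 41.3 on any array. VhaAC39-2 had the only present call, on 2xbcd replicate 2, where it read 22.1, against 5.60 to 25.9 on the other arrays. Vha68-3 was called marginal on 2xbcd replicate 3, at 13.6. No fold is given for these 11 genes, which had too few present calls to be tested.

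**Figure D1:**
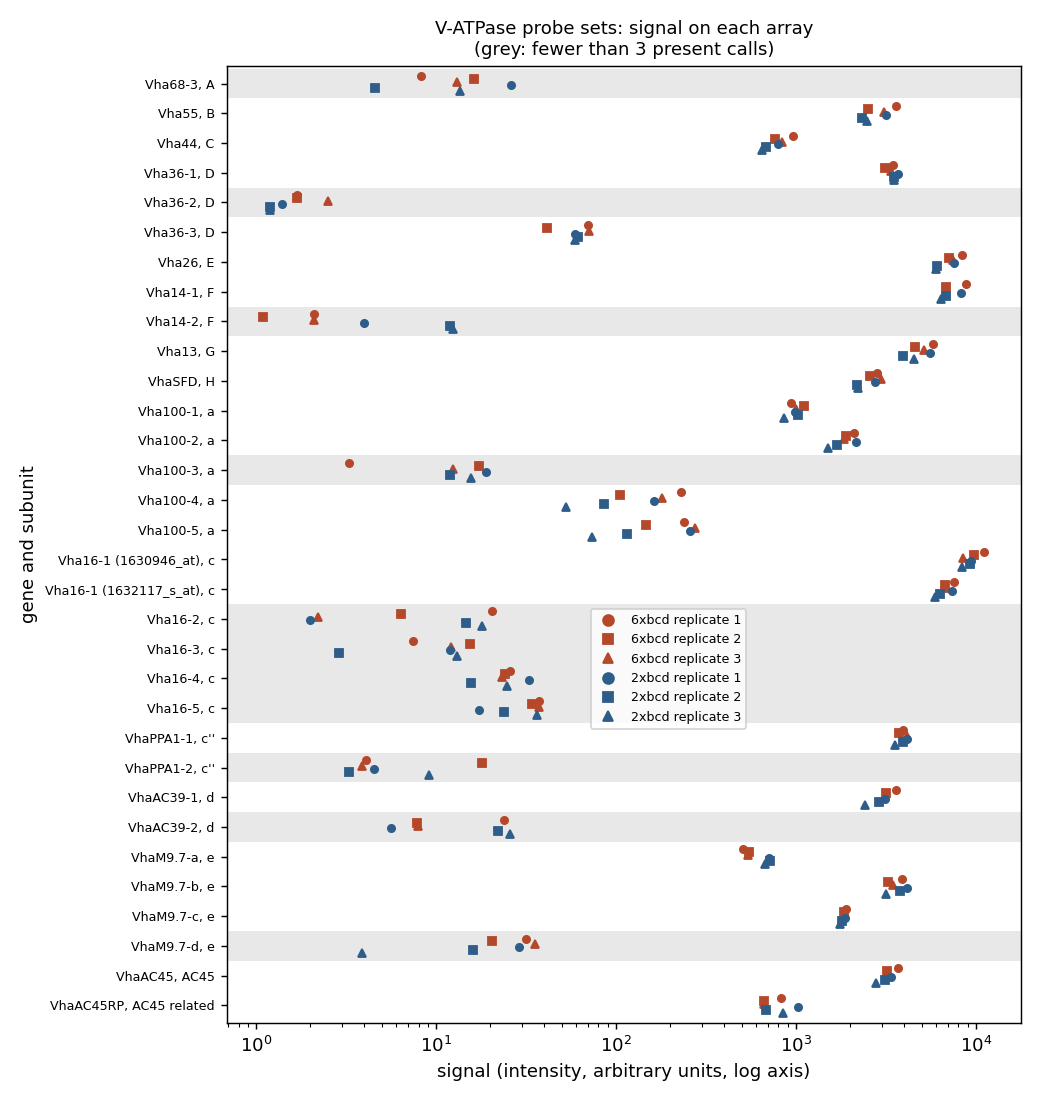
Signal of each V-ATPase probe set (rows, gene and subunit) on the 6 arrays, on a log axis, with colour for the group and shape for the replicate; grey rows had fewer than 3 present calls. The grey rows lie at or below 37.5 and the others at or above 41.3; signals of different probe sets cannot be set against each other as RNA levels.

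Detected and undetected copies could be neighbours in the genome. Vha16-2 and Vha16-3 on chromosome 3L have no protein-coding gene between them in the RefSeq gene order (Release 6), and both were undetected. VhaPPA1-1 and VhaPPA1-2 on 3R have 1 protein-coding gene between them, and VhaPPA1-1 was detected on every array while VhaPPA1-2 was absent on all 6. Vha100-4 and Vha100-2 follow each other directly on 3R, and both were detected. The 31 genes lie on 2L (4 genes), 2R (8), 3L (5), 3R (12) and the X (2, Vha36-3 and VhaAC39-1).

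No V-ATPase gene differed between 6xbcd and 2xbcd embryos past the threshold. Of 21 tested probe sets 0 passed a limma adjusted p of 0.05, where 1.32% of all 10137 tested probe sets did, and the lowest adjusted p of a member was 0.127. At an unadjusted p under 0.05 there were 8 members, 6 higher and 2 lower in 6xbcd, against 14.9% of all tested probe sets (7.59% higher and 7.32% lower). These 8 had adjusted p values from 0.127 to 0.322, and the other 13 from 0.339 to 0.985. The count at an unadjusted p under 0.05 depended on the fit. It was 1 without the replicate pairing, 1 without replicate 3 and 10 with quantile normalization. The matching shares of all tested probe sets were not counted, so these counts do not tell the members from other genes in those fits. The log2 change was positive for 16 of 21 members, with a median of 0.12, and for 52.7% of all tested probe sets, with a median of 0.011. By sector, the median was 0.18 for 8 V1 probe sets and 0.12 for 11 V0 probe sets. With 1 array left out and no replicate pairing, the median of the members ran from 0.046 (without 2xbcd replicate 3) to 0.18 (without 2xbcd replicate 1). With both 2xbcd replicates 2 and 3 left out it was -0.062, and 9 of the 16 positive changes turned negative. That fit was added after these arrays were seen to read low for the members, so a lower median was set by the choice, and it rests on a single 2xbcd array.

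**Figure D2:**
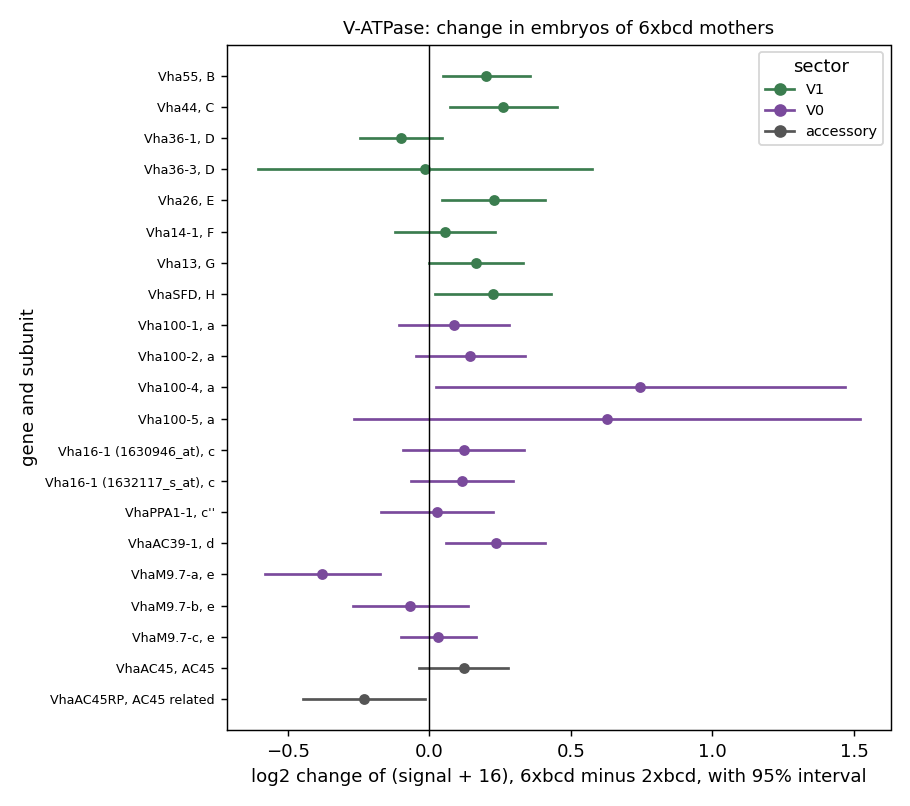
Log2 change of signal + 16 in 6xbcd against 2xbcd embryos for the 21 tested V-ATPase probe sets, with the 95% interval of each from limma before any adjustment; colour gives the sector. Most points lie between -0.10 and 0.26, VhaM9.7-a lies lowest at -0.38 and Vha100-4 highest at 0.75 with a wide interval.

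Among V1 subunits, 4 of 8 probe sets had an unadjusted p under 0.05, all with higher means in 6xbcd embryos. Of all tested probe sets, 7.59% were higher at this p. Without the replicate pairing the unadjusted limma p was 0.066 for Vha44, 0.069 for VhaSFD, 0.091 for Vha26 and 0.24 for Vha55. Vha55 encodes subunit B, which forms the ATPase head with subunit A. Its signal was 3579, 2530.1 and 3069.7 on the 6xbcd arrays and 3163, 2322 and 2489 on the 2xbcd arrays, in the order of the replicate number. The groups overlapped, with 6xbcd replicates 2 and 3 below 2xbcd replicate 1, and the log2 change was 0.20 (SE 0.0615, limma adjusted p = 0.239).

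Vha44 encodes subunit C, which joins the ATPase head to the membrane sector and leaves when the pump comes apart. It read 959, 765 and 842 in 6xbcd and 799, 681.5 and 651 in 2xbcd embryos. Only 6xbcd replicate 2 lay within the control range, and the log2 change of 0.26 (SE 0.0753, limma adjusted p = 0.216) was the highest of the V1 sector. VhaSFD, which encodes subunit H, a regulator that keeps detached V1 from splitting ATP, read 2835, 2578 and 2955 in 6xbcd and 2751, 2199 and 2225 in 2xbcd embryos. Here too a single 6xbcd array, replicate 2, lay below 2xbcd replicate 1, and the log2 change was 0.23 (SE 0.0820, limma adjusted p = 0.297).

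Vha26 and Vha13 encode subunits E and G, which pair up in the outer stalks that hold the head still. Vha26 read 8416, 7120.1 and 7462 in 6xbcd and 7589, 6119.9 and 6002 in 2xbcd embryos, with a log2 change of 0.23 (SE 0.0729, limma adjusted p = 0.256). Vha13 read 5781, 4613 and 5174 in 6xbcd and 5533, 3919 and 4514 in 2xbcd embryos, with a log2 change of 0.16 (SE 0.0666, limma adjusted p = 0.339). In both genes replicate 1 was the highest array of its group, and 2xbcd replicate 1 lay above 6xbcd replicates 2 and 3.

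Genes of the central shaft, subunits D and F, had changes near or below 0. Vha36-1 (D) read 3469, 3131 and 3387 in 6xbcd and 3672, 3514 and 3511 in 2xbcd embryos. Each 6xbcd array lay below each 2xbcd array, as for 8.68% of all tested probe sets, but the log2 change was small, at -0.10 (SE 0.0580, limma adjusted p = 0.478). Vha36-3, the second detected D gene, on the X, read 69.7, 41.3 and 70.8 in 6xbcd and 59.4, 61.9 and 59.1 in 2xbcd embryos. Its 6xbcd replicate 2 lay below and the other 6xbcd arrays above all control arrays, and the log2 change was -0.016 (95% interval -0.61 to 0.57). Vha14-1 (F) read 8765, 6801 and 6835 in 6xbcd and 8268, 6864 and 6384 in 2xbcd embryos. The groups overlapped widely, and the log2 change was 0.056 (SE 0.0710).

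In the V0 sector, subunit a was the family with most detected copies. It lines the path of the protons, and its isoforms are known to direct pumps to different membranes. Vha100-1, which in the fly acts at synapses, read 941, 1112 and 1004 in 6xbcd and 987, 1030.4 and 861 in 2xbcd embryos. Vha100-2 read 2109.5, 1894 and 1849.9 in 6xbcd and 2149, 1696 and 1499 in 2xbcd embryos. The groups overlapped for both genes, with log2 changes of 0.086 (SE 0.0781) and 0.14 (SE 0.0772) and limma adjusted p values of 0.649 and 0.448.

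Vha100-4 and Vha100-5 varied the most between arrays among the detected members. Vha100-4 read 231, 105 and 181 in 6xbcd and 162, 86.4 and 52.6 in 2xbcd embryos, so that the highest array was 4.40 times the lowest. Vha100-5 read 239, 147 and 274 in 6xbcd and 259, 115 and 74.1 in 2xbcd embryos, a ratio of 3.69. In both genes 2xbcd replicate 3 was lowest, followed by 2xbcd replicate 2 and 6xbcd replicate 2, the same order as at the upper end of the main axis. For each of the other 19 tested probe sets the highest array was under 2 times the lowest, as for 77.9% of all tested probe sets.

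The groups overlapped for both genes, and the change came mainly from 1 pair. For Vha100-4 the log2 difference was 0.48, 0.24 and 1.52 in pairs 1, 2 and 3, with a fitted change of 0.75 (SE 0.289, limma adjusted p = 0.322). For Vha100-5 it was -0.11, 0.31 and 1.68, with a fitted change of 0.63 (SE 0.358, limma adjusted p = 0.473). Without the replicate pairing, the change of Vha100-4 was 0.42 when 2xbcd replicate 3 was left out and 1.11 when 2xbcd replicate 1 was. For Vha100-5 these values were 0.27 and 1.07. In the authors' deposited table an increase was called for both genes in pair 3, with log2 ratios of 1.3 and 1.8, and no change in pairs 1 and 2. The deposited ratio in pair 1 was 0.1 for each gene, unlike the differences of 0.48 and -0.11 above.

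**Figure D3:**
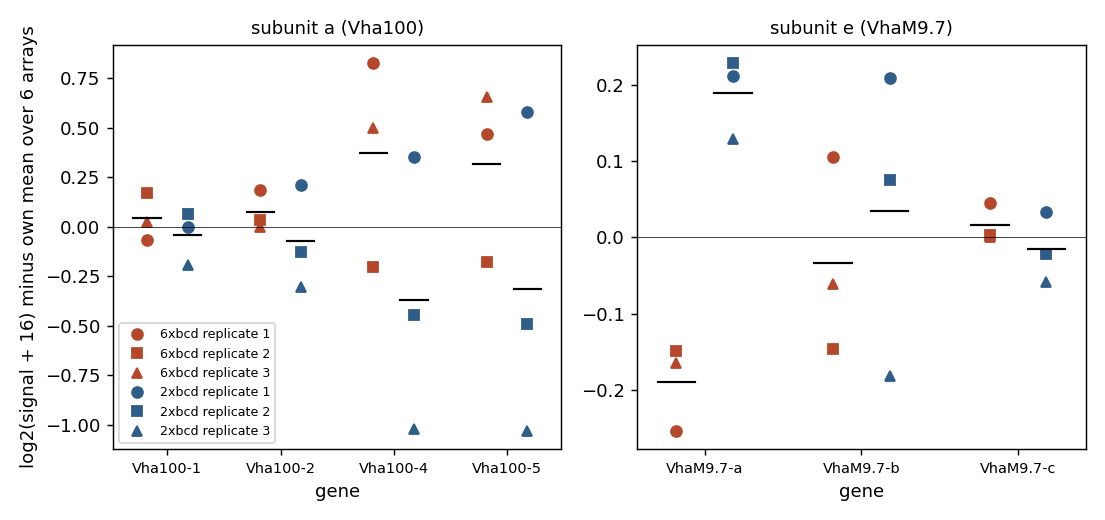
Log2 of signal + 16 on each array, less the probe set's own mean over the 6 arrays, for detected copies of subunit a (left) and subunit e (right), with 6xbcd arrays in red, 2xbcd arrays in blue, and a black line at each group's mean; the vertical axes differ. Vha100-4 and Vha100-5 spread widely with 2xbcd replicate 3 lowest, and VhaM9.7-a is the panel's single gene with all 6xbcd arrays below all 2xbcd arrays.

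Vha16-1 encodes the proteolipid c, the main building block of the rotating ring, and was the only detected gene of 5 copies. It had a pair of probe sets. The first read 11162, 9801 and 8536 in 6xbcd and 9374, 9267.5 and 8361 in 2xbcd embryos. The second read 7603, 6760.4 and 6827 in 6xbcd and 7396, 6301 and 5924 in 2xbcd embryos. Their log2 changes were 0.12 (SE 0.0857) and 0.12 (SE 0.0719), with limma adjusted p values of 0.562 and 0.506. The differences in pairs 1, 2 and 3 ran in opposite orders, at 0.25, 0.081 and 0.030 for the first and 0.040, 0.10 and 0.20 for the second. VhaPPA1-1, the c'' subunit of the same ring, read 3950.0, 3759 and 4150.2 in 6xbcd and 4124, 3944 and 3569.7 in 2xbcd embryos, with a log2 change of 0.028 (95% interval -0.17 to 0.23). Its lowest array was 2xbcd replicate 3, and the other 2xbcd arrays lay within the range of the 6xbcd arrays.

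VhaAC39-1, on the X, encodes subunit d, which couples the ring to the shaft. Its signal was 3590.4, 3160.4 and 3146 in 6xbcd and 3119, 2908 and 2416 in 2xbcd embryos. All 6xbcd arrays lay above all 2xbcd arrays, as for 7.38% of all tested probe sets, although 6xbcd replicate 3 and 2xbcd replicate 1 lay close together. The log2 change was 0.23 (SE 0.0703, limma adjusted p = 0.232).

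The small membrane subunit e was detected from 3 of 4 copies, and VhaM9.7-a had the lowest p of all members. It read 510.2, 549.7 and 543.5 in 6xbcd and 711, 719 and 670.0 in 2xbcd embryos. All 6xbcd arrays were lower than all 2xbcd arrays, with a mean of 534 ± 21.2 against 699.9 ± 26.2 (SD, n = 3). The log2 change was -0.38 (SE 0.0813, 95% interval -0.58 to -0.18 before adjustment), it was negative in 3 of 3 pairs, and the limma adjusted p was 0.127. Over the alternatives its adjusted p ran from 0.0998 to 0.636, and without 2xbcd replicates 2 and 3 its change was -0.40. It was the single member whose group difference exceeded the range within each group, as for 9.41% of all tested probe sets. The authors' deposited table called a decrease in pairs 1 and 3 and no change in pair 2, with log2 ratios of -0.4, -0.4 and -0.3.

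In the other copies of subunit e the groups overlapped, and a difference between the copies was not tested. VhaM9.7-b read 3872, 3250.5 and 3449 in 6xbcd and 4163, 3793 and 3171 in 2xbcd embryos, with a log2 change of -0.068 (95% interval -0.27 to 0.13). VhaM9.7-c was the steadiest of all members, between 1768 and 1900.2 on the 6 arrays, and its log2 change was 0.032 (95% interval -0.10 to 0.16).

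Accessory proteins help the V0 sector to assemble and to reach its membrane. VhaAC45 read 3676, 3199 and 3245 in 6xbcd and 3385, 3140.0 and 2789.8 in 2xbcd embryos, with a log2 change of 0.12 (SE 0.0630, limma adjusted p = 0.437). VhaAC45RP, a related gene on 3R, read 824, 664 and 668 in 6xbcd and 1029, 686 and 845 in 2xbcd embryos. Its groups overlapped, its log2 change was -0.23 (SE 0.0869), and the limma adjusted p was 0.311.

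The spread between arrays of the same group was larger than the difference between groups for most members, as for most of all tested probe sets. In 19 of 21 probe sets the group difference was smaller than the range within 2xbcd, and in 18 smaller than the range within 6xbcd, against 82.2% and 78.4% of all tested probe sets. Between some arrays of the same group most members moved the same way. All 21 read lower on 2xbcd replicate 3 than on 2xbcd replicate 1, with a median log2 difference of -0.29, where 47.9% of all tested probe sets did, with a median of 0.016. On 6xbcd replicate 2, 19 of 21 read lower than on 6xbcd replicate 1, with a median of -0.20, against 47.5% of all tested probe sets. Fewer members, 15 of 21, read lower on 6xbcd replicate 3 than on 6xbcd replicate 1, against 46.8%. Of V0 probe sets, 5 of 11 read lower on 6xbcd replicate 2 than on 6xbcd replicate 3.

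Array 2xbcd replicate 3 held the lowest signal of 14 members, against 21.5% of all tested probe sets, and 6xbcd replicate 1 the highest signal of 11 members, against 16.4%. A difference between the sectors was not tested. For V0, 2xbcd replicate 3 was lowest in 10 of 11 probe sets, the exception being VhaM9.7-a. For V1 the lowest array was 2xbcd replicate 3 in 3, 2xbcd replicate 2 in 3 and 6xbcd replicate 2 in 2 of 8 probe sets. On 6xbcd replicate 2 all 8 V1 probe sets read lower than on both other 6xbcd arrays. The medians of all members, from their own means, were 0.19, -0.057 and 0.026 on the 6xbcd arrays and 0.10, -0.083 and -0.19 on the 2xbcd arrays.

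**Figure D4:**
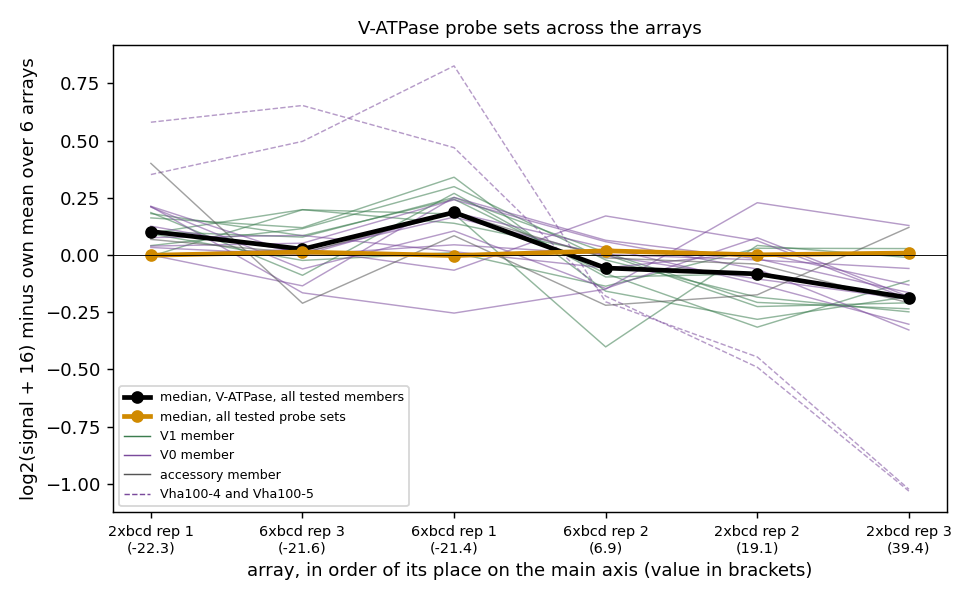
Deviation of each tested V-ATPase probe set from its own 6-array mean (thin lines, log2 of signal + 16), with the median of the 21 members (black) and of all 10137 tested probe sets (orange), over arrays in the order of their place on the main axis. The black line starts at 0.10 on 2xbcd replicate 1, dips to 0.026 on 6xbcd replicate 3 and peaks at 0.19 on 6xbcd replicate 1. It then falls to -0.19 on 2xbcd replicate 3. The orange line stays near 0, and Vha100-4 and Vha100-5 (dashed) fall the furthest.

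By pair, the median log2 difference of the members was 0.043, 0.10 and 0.22 in pairs 1, 2 and 3, and 13, 14 and 18 of 21 were higher in 6xbcd. For all tested probe sets the medians were -0.0082, 0.020 and -0.0053, and 48.6%, 53.5% and 49.3% were higher in 6xbcd. In 11 members the sign was positive and in 3 negative in all 3 pairs. Of all tested probe sets 39.0% kept 1 sign throughout, a share that was not split by direction. An increase was called in the authors' deposited table for 0, 0 and 6 members in pairs 1, 2 and 3, against 4.41%, 6.76% and 13.8% of all tested probe sets. The 6 genes in pair 3 were Vha100-4, Vha100-5, VhaSFD, Vha44, Vha36-3 and VhaAC39-1. Among tested members a decrease was called only for VhaM9.7-a, in pairs 1 and 3, and for 0 in pair 2. The shares of all tested probe sets were 6.18%, 4.27% and 9.03% in pairs 1, 2 and 3. Vha68-3, which was not tested, was also called decreased in pair 1.

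Markers of muscle also read low on 2xbcd replicate 3. Of 8 fixed genes 5 were tested, Tm2, bt, Mlc1 and Mlc2 among them, while Mhc, wupA and Act57B had no probe set of their own. Their summed signal lay between 5240 and 7745 in 6xbcd and between 2207 and 10283 in 2xbcd embryos, and all 5 were lower on 2xbcd replicate 3 than on 2xbcd replicate 1, with a median log2 difference of -2.16. All 5 were highest on 2xbcd replicate 1, where 4 of 21 V-ATPase probe sets were. On 6xbcd replicate 3, 1 of 5 muscle genes and 15 of 21 V-ATPase probe sets read lower than on 6xbcd replicate 1, with median log2 differences of 0.20 and -0.17. Tm2, which encodes a tropomyosin of muscle, read 1234, 864.5 and 1371 in 6xbcd and 1748, 736 and 357 in 2xbcd embryos. None of the 5 muscle genes read below 187 on any array, and 0 passed the test (median log2 change 0.40). Their part in the V-ATPase values was not tested. In whole embryos, fewer cells of a type and less RNA per cell cannot be told apart.

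The lists for other tissues are given as counts, and a difference from the V-ATPase genes was not tested. Of 8 Malpighian tubule genes 6 were tested and 0 passed (median log2 change 0.066), and 2 of these 6 were lower on 2xbcd replicate 3 than on 2xbcd replicate 1. In endoderm and midgut 5 of 6 genes were tested, 0 passed (median 0.11) and 0 were lower on that array. Of 7 tracheal genes 6 were tested, 0 passed (median -0.22) and 2 were lower there, and of 8 neuron genes 6 had a probe set and 3 of these enough present calls to be tested, 0 passed (median -0.12) and 1 was lower. Late epidermis genes (9 with a probe set, 8 tested, 0 passed, median 0.043) were lower on 2xbcd replicate 3 in 6 of 8, with a median difference of -0.36. Among maternal and germ cell RNAs 6 of 9 were tested, 0 passed (median 0.53) and 4 were lower on 2xbcd replicate 3. Of 10 blood cell genes, all with a probe set, 8 were tested (median 0.24, with 5 positive and 3 negative changes). Of these, 3 were lower on 2xbcd replicate 3, and 2 passed. These were PPO1 and PPO2, prophenoloxidases of crystal cells, which rose by log2 changes of 1.09 and 0.98 (limma adjusted p = 0.0221 and 0.0224). Both lost their call without replicate 1 (0.124 and 0.0970), without replicate 2 (0.125 and 0.200) and without the intensity trend (0.153 and 0.157), and over all alternatives their adjusted p values ran from 3.45e-05 to 0.234 and from 4.06e-05 to 0.200.

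Genes that work beside the pump are set against it here as counts, with no test of the difference. For the mitochondrial ATP synthase, a rotary enzyme of related build that makes ATP, 13 of 14 genes were tested, and 0 passed, with a median log2 change of 0.025. Its members were lower on 2xbcd replicate 3 than on replicate 1 in 7 of 13, while 11 of 13 were lower on 6xbcd replicate 2 than on 6xbcd replicate 1. ATPsyndelta came nearest to the threshold, at 4482, 4095 and 4019 in 6xbcd and 5708, 5564.5 and 5383 in 2xbcd embryos (log2 change -0.40, limma adjusted p = 0.0547). Lysosomal proteins had 12 of 16 genes tested and 0 past the threshold, with a median of -0.049, and 5 of 12 were lower on 2xbcd replicate 3 than on replicate 1. Npc2a, a lysosomal cholesterol carrier, had the smallest p of them, at 1599.9, 1269 and 1148 in 6xbcd and 1275, 1149.7 and 773 in 2xbcd embryos (log2 change 0.34, limma adjusted p = 0.193).

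For V-ATPase regulators 3 of 5 genes were tested. Mitf, the transcription factor known in the fly to drive V-ATPase and lysosomal genes, read 55.2, 52.2 and 62.3 in 6xbcd and 93.4, 45.9 and 54.9 in 2xbcd embryos, with overlapping groups (log2 change -0.11, limma adjusted p = 0.875). The others were mtd at -0.078 and Rbcn-3B, a partner in V-ATPase assembly, at 0.016. Of the TORC1 and Ragulator genes, which sense nutrients at the lysosome with the V-ATPase, 6 of 10 were tested and 0 passed (median -0.10), with Lamtor4 lowest in p at a log2 change of -0.24 (limma adjusted p = 0.207).

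In endosome and lysosome fusion genes 9 of 13 were tested, and 1 fell. Vps4, on the X, encodes the ATPase that takes ESCRT filaments apart in the sorting of membrane proteins. Its signal was 782, 853 and 787 in 6xbcd and 1094, 1139 and 1063 in 2xbcd embryos, with no overlap between the groups. The log2 change was -0.44 (SE 0.0624, limma adjusted p = 0.046), and the list's median was -0.038. This call was lost without the replicate pairing (adjusted p = 0.0666), with quantile normalization (0.0545), without the filter (0.0682), without the intensity trend (0.199), without replicate 1 (0.183) and without replicate 2 (0.294), and over all alternatives its adjusted p ran from 0.0309 to 0.550.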

How the data were processed

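Affymetrix Drosophila Genome 2.0 arrays measured total RNA, per the labels' protocols, and the scans went through GCOS, per the submitters' processing notes. Signals in the deposited table are intensity values that the authors had scaled, as the equal trimmed means (2% off each end) show. The table's header also names detection calls and, for every pair, the authors' log2 ratio, change call and p-value. Both deposited tables hold identical signals, and the precision is limited by the number of arrays. Gene names came from the array annotation, matched by Entrez number to RefSeq genes of Release 6, and no coordinates are printed because no source used here names the build of the files. Of the 21 tested members, 7 have names ending in _s_at, used by Affymetrix for probes that several transcripts share, and cross-reaction between copies was not tested.

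Values were log2(signal + 16), which understates changes of dim probe sets, and a probe set needed 3 present calls among 6 arrays to be tested. Tests were two-sided, with limma 3.58.1 in R 4.3.3 and a threshold of 0.05 after Benjamini-Hochberg over 10137 probe sets. The fit used eBayes with intensity trend and the replicate number as block, with 2 residual and 3.56 prior degrees of freedom. SEs are from this fit. It was also run on simulated signals, which had independent noise on each array, no pair effect and no main axis. The changes put into them were larger than that of any member. That run therefore does not show how well changes of the members' size would be found on these arrays. The block follows the design text, which speaks of paired experiments with independent RNA samples. Same-numbered arrays had correlated deviations in pairs 1 and 2 (0.437 and 0.385) but not in pair 3 (-0.190). Between differently numbered arrays, 6xbcd replicate 2 and 2xbcd replicate 3 reached 0.422. For 6xbcd replicate 3 and 2xbcd replicate 1 it was 0.342, and the remaining combinations lay between -0.629 and -0.208. Correlations of this size were therefore not particular to a shared replicate number.

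Members and lists were chosen with earlier results of these data known, so no p over the members is given. The 13 context lists (123 entries, 90 tested) used the brightest probe set of each gene. The text names all members, bcd, up to 4 genes per list by smallest p, any list gene past the threshold, and the muscle genes with no probe set. Alternatives covered the block, scaling, offset, filter, trend, threshold and the leaving out of pairs or arrays. Leaving out 2xbcd replicates 2 and 3 together was added after seeing the data.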

Additional observations from a re-analysis of the deposited data

How the results depend on the processing

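Under the 18 alternatives set out at the start and the 1 added later, 0 of 21 V-ATPase probe sets passed the threshold of each in limma. The lowest adjusted p of a member was 0.0998, for VhaM9.7-a without replicate 3 at a threshold of 0.05. The count over all tested probe sets, 134, was 5 without the intensity trend, 247 at a threshold of 0.1, 17, 10 and 270 without replicates 1, 2 and 3, and 15 without 2xbcd replicates 2 and 3. Without the block it was 38, 23 and 32 when 6xbcd replicates 1, 2 and 3 were left out in turn, and 88, 25 and 36 for the 2xbcd replicates. The median change of the members ran from 0.046 to 0.18 with 1 pair or array left out and was -0.062 without 2xbcd replicates 2 and 3, which leaves 1 control array. Of 399 member values under alternatives 380 kept their sign, and none changed its call. The settings that changed only the block, the filter, the trend or the threshold leave each log2 change as it was. In those settings the sign could not turn, so the 380 include values fixed in advance. In the added setting the sign turned for Vha55 (-0.062), Vha13 (-0.098), Vha14-1 (-0.16), Vha100-2 (-0.14), Vha100-5 (-0.27), 1 of the probe sets of Vha16-1 (-0.068), VhaPPA1-1 (-0.062), VhaM9.7-c (-0.017) and VhaAC45 (-0.0076). With 1 pair left out, it turned for VhaM9.7-b (0.0083) and Vha36-3 (0.20) without replicate 2 and for VhaPPA1-1 (-0.066) without replicate 3, within ranges of -0.066 to 0.077 for VhaPPA1-1 and -0.13 to 0.20 for Vha36-3. With 1 array left out and no block, it turned for Vha14-1 (-0.064 and -0.023), VhaPPA1-1 (-0.0071 and -0.030), VhaM9.7-b (0.019) and Vha36-3 (0.18 and 0.00015). The cause was not tested. The replicate block itself changed no member's call, and without it VhaM9.7-a had an adjusted p of 0.157. The precision differed between members: the 95% interval of Vha100-5 ran from -0.27 to 1.52, and that of VhaM9.7-c from -0.10 to 0.16.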
